A study of Mus musculus with 6 samples.

Results

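A set of 9 genes that mark astrocytes as they mature was followed in neural stem progenitor cells given PTN. Each was taken from the deposited gene table by its symbol, and all 9 of them were found among its 22322 genes and passed the filter on low counts, which left 13161 genes tested. The study sequenced wild-type mouse neural stem progenitor cells 24 h after PTN or after PBS, the Control, with 3 libraries in each group. PTN is read here as pleiotrophin, a secreted heparin-binding growth factor, since the labels give only the abbreviation. The series title places the experiment in conditioned medium, and the sources used here do not state how much PTN was added. The labels name 1 cell line entry for all 6 libraries and do not say whether replicates are separate cultures or animals. The p-values therefore measure the spread between these libraries, which may be technical.

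Astrocytes arise from the same radial glia-like progenitors as neurons, and progenitors in culture already carry part of the astrocyte programme. Maturation is marked by the filament protein GFAP, by enzymes of sugar, folate and fatty acid metabolism, by gap junctions that join astrocytes into a network, by water channels at vessel contacts, and by secretion of apolipoprotein E particles. In the brain these proteins buffer ions and transmitters, pass metabolites between cells and supply neurons with lipid. In bulk libraries such as these, fewer cells of a type and less RNA per cell cannot be told apart.

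Libraries held 19267764 to 26341745 expected counts, and levels are given as CPM, a count scaled to the total of its library, where 1 CPM stood for about 19.3 to 26.3 counts. The labelled cell type was in keeping with its defining markers: Sox2 lay at 166 ± 15.9 and 214 ± 63.7 CPM in Control and PTN, and Nes at 722 ± 39.5 and 988 ± 294 CPM (SD, n = 3 each). Neither was called (edgeR adjusted p = 0.286 and 0.215). The Control cells also held astrocyte transcripts at high levels, Gfap alone taking 0.359% to 0.376% of all counts. Markers of microglia summed to between 2.07 and 4.01 CPM in every library, and Aif1 and Tmem119 were at 0 in all PTN libraries. Together, Uty, Kdm5d, Ddx3y and Eif2s3y, all on the Y chromosome, summed to 49.3 to 102 CPM in Control and to 30.3, 74.2 and 7.96 CPM in PTN 1, PTN 2 and PTN 3. PTN 2 also stood apart from PTN 1 and PTN 3 in the genes described here, so values without PTN 2 and without PTN 3 are given where they differ.

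Among the astrocyte maturation genes, 4 of 9 were lower after PTN and 0 were higher by edgeR's quasi-likelihood test at an adjusted p under 0.05. Those lower were Gfap, Aldoc, Gjb6 and Acsl6. Gja1, Aqp4, S100b, Aldh1l1 and Apoe were not called. At an unadjusted p under 0.05, 4 were lower and 1, S100b, was higher, and both DESeq2 and limma-voom called 4 lower and 0 higher. Over all 13161 genes tested 3.06% were called lower, 4.93% higher and 7.99% in either direction. At an unadjusted p under 0.05 the shares over all genes were 12.2% lower and 14.7% higher. DESeq2 called 5.88% of all genes lower and 8.62% higher, and limma-voom 3.34% and 4.63%. The median log2 fold change, PTN minus Control, was -0.36 over the 9 genes and 0.03 over all genes tested. Without PTN 2 the median of the 9 was -0.82, and without PTN 3 it was -0.48, with 4 called lower each time. With Control 1 or Control 2 left out 2 of the 9 were called lower, and with Control 3 or PTN 1 left out 1 was.

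**Figure D1:**
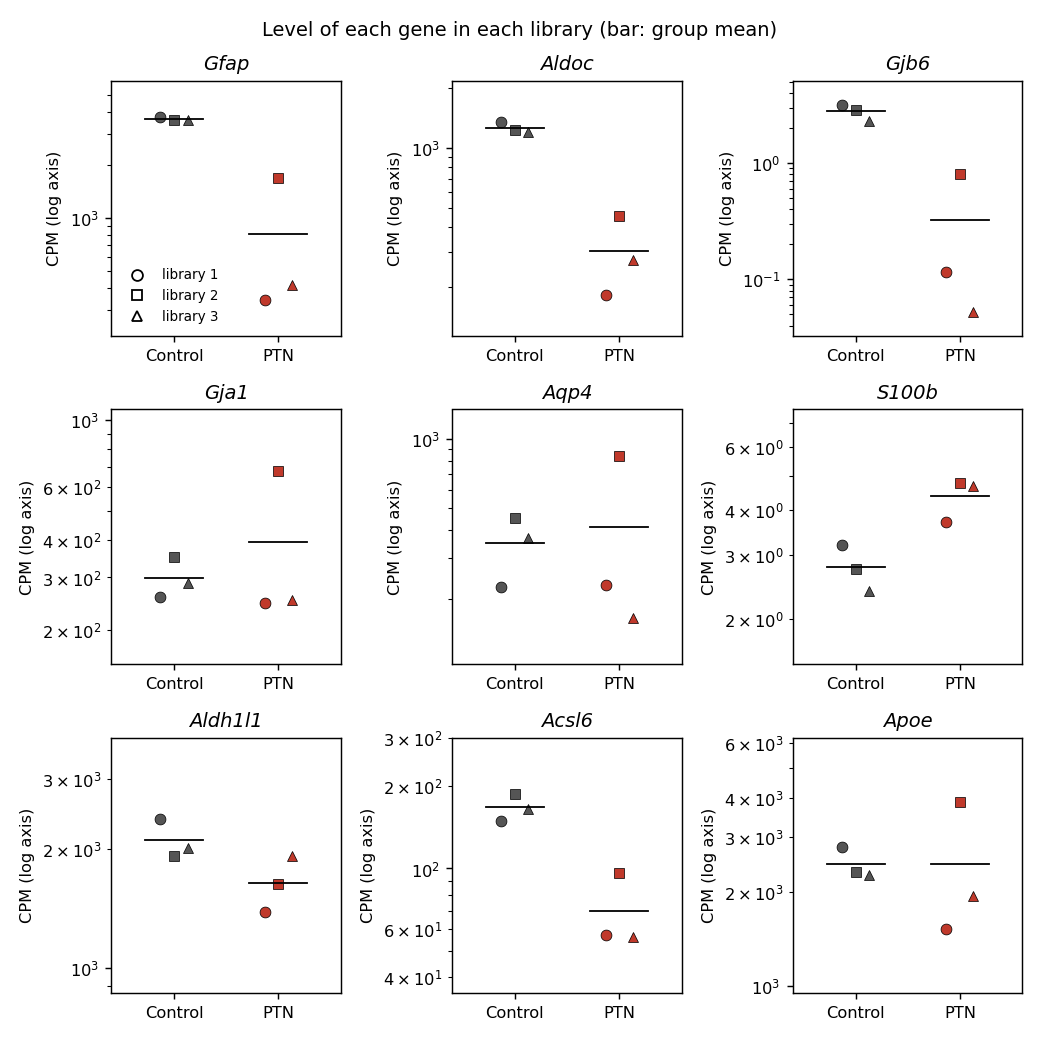
Level of each of the 9 genes in CPM on a log axis, by group, with 1 point per library (circle, square and triangle for libraries 1, 2 and 3) and a bar at the group mean. PTN 2 is the highest PTN library in all panels but that of Aldh1l1, and all PTN points lie below all Control points for Gfap, Aldoc, Gjb6, Acsl6 and Aldh1l1.

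The sequence before the start of 3 of the genes that fell is shown because these genes had the largest falls of the set, taken from RefSeq on GRCm38.p6. The table used held 8 of the 9 genes, and Aqp4 was the exception. Each window spans up to 250 bases before the gene's start and ends where a GENCODE exon begins. Capitals mark a match to TTGGCA, the short form of the nuclear factor I site. Gfap is shown for chr11:102897201-102897450 on the minus strand, Gjb6 for chr14:57133612-57133861 on the minus strand, and the first of 2 starts of Aldoc for chr11:78322823-78322967 on the plus strand.
Gfap: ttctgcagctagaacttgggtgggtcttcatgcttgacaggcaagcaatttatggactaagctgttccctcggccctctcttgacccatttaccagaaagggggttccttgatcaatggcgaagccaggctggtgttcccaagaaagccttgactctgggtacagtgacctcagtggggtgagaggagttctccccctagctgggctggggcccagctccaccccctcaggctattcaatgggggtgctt
Gjb6: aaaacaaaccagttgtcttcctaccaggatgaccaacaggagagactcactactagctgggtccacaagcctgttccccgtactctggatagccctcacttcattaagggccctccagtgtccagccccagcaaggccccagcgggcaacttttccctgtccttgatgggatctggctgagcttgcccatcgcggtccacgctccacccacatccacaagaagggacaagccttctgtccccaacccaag
Aldoc: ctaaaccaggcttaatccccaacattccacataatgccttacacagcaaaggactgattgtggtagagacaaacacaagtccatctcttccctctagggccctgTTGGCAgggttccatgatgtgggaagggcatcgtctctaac

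Motifs of 3 factor families that act in astrocyte formation were searched on both strands of the full 250 bases before every start: TTCNNNGAA for STAT factors, the full palindromic site and TTGGCA for nuclear factor I, and ACAATG for SOX factors. The full nuclear factor I site opens with TTGGC and overlaps TTGGCA where an A follows. Across all 32851 windows searched, 7.02% held TTCNNNGAA, 0.0365% the full nuclear factor I site, 12.3% TTGGCA and 10.7% ACAATG, on either strand. The windows of Gfap and Gjb6 and all 3 windows of Acsl6 held no match. Aldoc had TTGGCA from base -146 to -141 before its first start. Before its second start, 1125 bases further along the gene, it had TTCAGTGAA from -124 to -116 and TTCCAGGAA from -83 to -75, both of the TTCNNNGAA form and both inside an annotated GENCODE exon. S100b had TTGGCA from -19 to -14. Apoe had ACAATG from -144 to -139 before its first start and TTGGCA from -57 to -52 before the last of its 3 starts, the latter match inside an annotated exon. These matches describe letters in the sequence, and no binding was measured.

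Gfap (ENSMUSG00000020932) encodes glial fibrillary acidic protein, the intermediate filament that defines astrocytes and is also present in adult neural stem cells. It stood at 3739.7, 3614 and 3601 CPM in Control 1, Control 2 and Control 3. In PTN 1, PTN 2 and PTN 3 it stood at 342, 1685 and 414 CPM. All PTN values lay below all Control values, but PTN 2 was several times higher than the other PTN libraries. The fall was 4.49-fold, or -2.17 ± 0.55 (SE) as log2 fold change (edgeR adjusted p = 0.047). Without PTN 2 the log2 fold change was -3.27, and without PTN 3 it was -1.85 (edgeR adjusted p = 0.000977 and 0.0457). The call was lost without Control 1, Control 2, Control 3 or PTN 1 in turn (edgeR adjusted p = 0.13, 0.0929, 0.113 and 0.107), and with the length trend removed (0.0577). Relative to the Control mean, PTN 1 kept 9.36%, PTN 2 46.1% and PTN 3 11.3%.

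Gfap was even across the Control libraries and uneven across the PTN libraries. Its coefficient of variation was 2.1% over the Control libraries and 92.9% over the PTN libraries. On the log2 scale the SD was 0.03 in Control, and 97.6% of 12460 genes with a mean of at least 1 CPM had a Control SD at least as large. In PTN the SD was 1.26, and 0.425% of those genes had an SD as large. The median SD over the same genes was 0.18 in Control and 0.25 in PTN.

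The metabolic enzymes among the 9 are Aldoc, Acsl6 and Aldh1l1. Aldoc (ENSMUSG00000017390), the aldolase isoform of brain, splits fructose bisphosphate in glycolysis. It stood at 1357, 1231 and 1204 CPM in the Control libraries and at 180.4, 456 and 271 CPM in PTN 1, PTN 2 and PTN 3. The groups did not overlap, and again PTN 2 was the highest PTN library. Aldoc fell 4.18-fold (log2 fold change -2.06 ± 0.31 SE, edgeR adjusted p = 0.00668) and stayed called in every refit, with a highest adjusted p of 0.0319, reached without Control 1. Its log2 fold change was -2.48 without PTN 2 and -1.99 without PTN 3.

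Acsl6 (ENSMUSG00000020333) encodes a long-chain acyl-CoA synthetase that activates polyunsaturated fatty acids in brain. Its values were 149, 188 and 165 CPM in Control and 57.0, 96.5 and 56.0 CPM in PTN. PTN 2 lay between the Control libraries and the other PTN libraries. The fall was 2.4-fold (log2 fold change -1.26 ± 0.23 SE, edgeR adjusted p = 0.0146). Without Control 3 and without PTN 1 the edgeR adjusted p was 0.0509 and 0.0549. The log2 fold change was -1.57 without PTN 2 and -1.13 without PTN 3.

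Aldh1l1 (ENSMUSG00000030088), a cytosolic folate enzyme that oxidises formyl tetrahydrofolate, is a widely used marker of all astrocytes. It read 2381, 1919.6 and 2015 CPM in Control against 1387, 1628 and 1916 CPM in PTN 1, PTN 2 and PTN 3. The groups did not overlap, by a margin of a few CPM between PTN 3 and Control 2. The log2 fold change was -0.36 with a 95% interval of -0.76 to 0.05 (edgeR adjusted p = 0.229). It was -0.35 without PTN 2 and -0.48 without PTN 3 (edgeR adjusted p = 0.316 and 0.0861). Aldh1l1 was the only 1 of the 9 genes in which PTN 3, not PTN 2, was the highest PTN library. All PTN values lay below all Control values in 5 of the 9 genes and in 17.1% of all genes tested.

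Of the 3 junction and channel genes, 1 fell and the others were not called. Gjb6 (ENSMUSG00000040055) encodes connexin 30, which forms gap junctions between mature astrocytes. It was a low gene, with 75, 75 and 49 counts in the Control libraries and 3, 18 and 1 counts in PTN 1, PTN 2 and PTN 3. In CPM it stood at 2.78 ± 0.445 in Control and 0.324 ± 0.416 in PTN (SD, n = 3 each). The fall was 8.4-fold (log2 fold change -3.07 ± 0.69 SE, edgeR adjusted p = 0.0319). Without Control 1, Control 2, Control 3 or PTN 1 in turn the edgeR adjusted p was 0.11, 0.0816, 0.0751 and 0.0977. Without PTN 2 the log2 fold change was -4.90 (edgeR adjusted p = 0.00358), resting on the 3 and 1 counts of PTN 1 and PTN 3. Without PTN 3 it was -2.62 (edgeR adjusted p = 0.0256).

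Gja1 (ENSMUSG00000050953) encodes connexin 43, the main gap junction protein of astrocytes, which progenitors also use. Its levels were 258, 351 and 288 CPM in Control and 246, 679 and 253 CPM in PTN 1, PTN 2 and PTN 3. PTN 2 lay above every Control library while PTN 1 and PTN 3 lay below every Control library. The log2 fold change was 0.39 with a 95% interval of -0.45 to 1.23 (edgeR adjusted p = 0.498). Without PTN 2 it was -0.26 (edgeR adjusted p = 0.386), and without PTN 3 it was 0.63 (edgeR adjusted p = 0.214).

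Aqp4 (ENSMUSG00000024411) encodes the water channel that astrocytes gather at their contacts with vessels. The Control libraries read 225, 453 and 370.1 CPM and the PTN libraries 231, 841 and 165 CPM. The groups overlapped, with PTN 2 above and PTN 3 below all Control libraries. The log2 fold change was 0.24 with a 95% interval of -1.01 to 1.49 (edgeR adjusted p = 0.789), and -0.82 without PTN 2 (edgeR adjusted p = 0.163). Without PTN 3 it was 0.62 (edgeR adjusted p = 0.349). Aqp4 also varied among the Control libraries, with a coefficient of variation of 33.1%.

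S100b (ENSMUSG00000033208) encodes a calcium-binding protein of mature astrocytes. It was low in these cells, at 3.21, 2.75 and 2.39 CPM in Control and 3.73, 4.77 and 4.68 CPM in PTN 1, PTN 2 and PTN 3, on 51 to 107 counts per library. The PTN values lay above the Control values, which held for 15.7% of all genes tested. Its log2 fold change was 0.65 with a 95% interval of 0.11 to 1.20, and it was not called after adjustment (edgeR adjusted p = 0.13).

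Apoe (ENSMUSG00000002985) encodes the apolipoprotein that astrocytes load with cholesterol and release. It had 2785, 2317 and 2272 CPM in Control and 1519.6, 3896 and 1943 CPM in PTN 1, PTN 2 and PTN 3. The group means were 2458 ± 284 and 2453 ± 1268 CPM (SD, n = 3 each), although no PTN library lay within the Control range. PTN 2 was above it, and PTN 1 and PTN 3 were below it. The fold change had a 95% interval of 0.603 to 1.65 (edgeR adjusted p = 0.996). Without PTN 2 the log2 fold change was -0.51 (edgeR adjusted p = 0.144), and without PTN 3 it was 0.14 (edgeR adjusted p = 0.779).

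**Figure D2:**
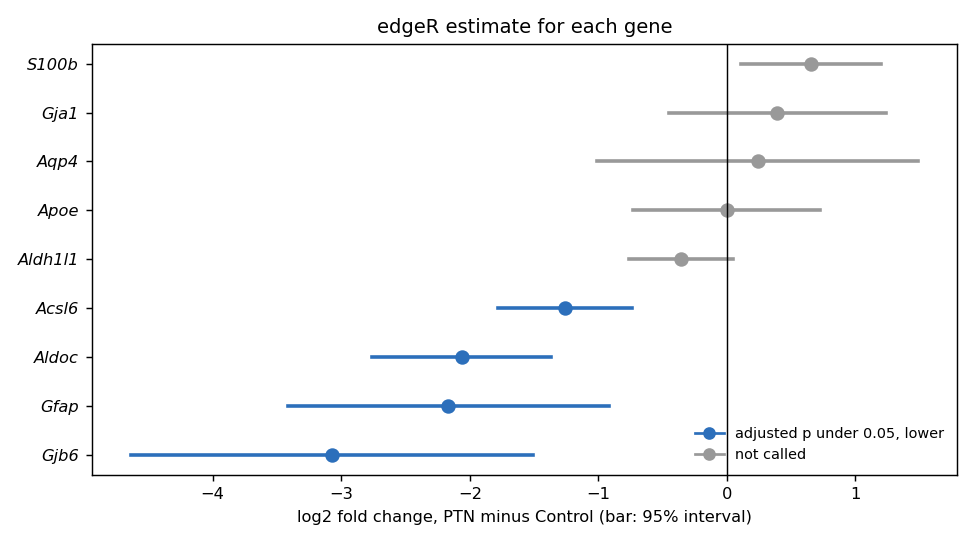
Log2 fold change of each gene, PTN minus Control, as edgeR estimated it, with its 95% interval as a bar. Blue marks genes called lower at an adjusted p under 0.05 and gray marks genes not called. The intervals of Gjb6, Gfap, Aldoc and Acsl6 lie below 0, while those of Aqp4, Apoe and Gja1 cross it widely.

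Level per gene length separated abundant from scarce members. In Control libraries Apoe was highest at 1756 ± 209 FPKM (fragments per kilobase of transcript, scaled to sequencing depth), followed by Gfap at 1382 ± 34.7, Aldh1l1 at 682 ± 81.0 and Aldoc at 628 ± 38.9 FPKM (SD, n = 3 each). Aldh1l1 was above Aldoc in every Control library, though narrowly in Control 2, at 617 and 609 FPKM. Then came Gja1 at 97.4 ± 14.8, Aqp4 at 72.9 ± 23.4 and Acsl6 at 51.6 ± 5.06 FPKM. This order held within every Control library, though Aqp4 and Acsl6 were close in Control 1, at 47.6 and 46.9 FPKM. S100b at 1.88 ± 0.282 and Gjb6 at 1.32 ± 0.212 FPKM were near the lower end. In PTN libraries Apoe was highest at 1752 ± 917 FPKM. Aldh1l1 at 529 ± 87.0, Gfap at 308 ± 288 and Aldoc at 150.2 ± 71.8 FPKM followed. Gfap was above Aldoc in every PTN library, and below Aldh1l1 in PTN 1 and PTN 3. In PTN 2 alone Gfap, at 639.95 FPKM, stood above Aldh1l1, at 529 FPKM.

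The split within the PTN group ran through most members. PTN 2 was the highest PTN library in 8 of the 9 genes, in 62 of 111 other tested astrocyte genes, and in 27.5% of all genes tested. This feature was singled out after the values were seen. The pattern of Gja1 and Apoe, with PTN 2 above and both PTN 1 and PTN 3 below every Control library, occurred in 2 of the 9 genes and in 1.86% of all genes tested. Among 111 tested genes of other astrocyte lists it occurred in 9, which were Agt, Dtna, Glud1, Gpam, Mt1, Ntsr2, Prdx6, Scrg1 and Sox9. The 9 maturation genes together took 0.394%, 0.933% and 0.501% of the counts of PTN 1, PTN 2 and PTN 3, against 0.997% to 1.10% in Control. In log2 CPM, with 0.5 CPM added, the SD over the PTN libraries of Aqp4, Gja1, Apoe and Aldoc was 1.24, 0.83, 0.70 and 0.67. The median was 0.25 over genes of at least 1 CPM. Gjb6 was at 0.67, a value that the added 0.5 CPM made smaller. It read only 0.116, 0.803 and 0.052 CPM in PTN 1, PTN 2 and PTN 3. Acsl6 was at 0.44, while Aldh1l1 and S100b, at 0.23 and 0.18, were below that median. The part of any single library property in this split was not tested.

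**Figure D3:**
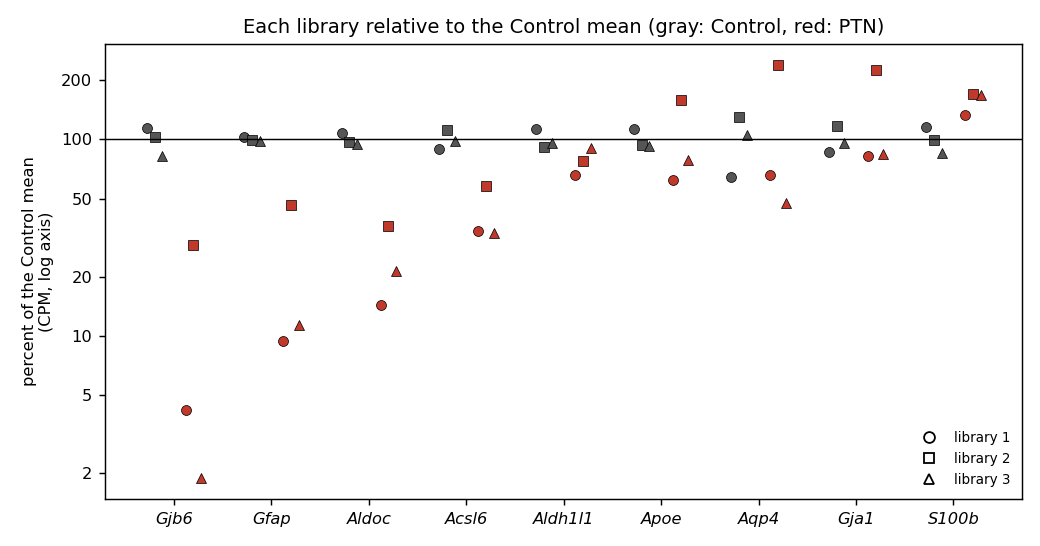
Each library's CPM as a percent of the Control mean of the same gene, on a log axis, with Control in gray and PTN in red, 1 marker shape per library number. Gjb6, Gfap, Aldoc and Acsl6 lie below 100 in all 3 PTN libraries, whereas Apoe, Aqp4 and Gja1 reach 158, 241 and 227 percent in PTN 2 alone.

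Relatives of the 9 genes were read beside them. Aldoa, the aldolase isoform of muscle and most tissues, read 974 ± 115 and 703 ± 166 CPM in Control and PTN (SD, n = 3 each). It was not called (log2 fold change -0.47, edgeR adjusted p = 0.172), but was without PTN 3 (-0.67, edgeR adjusted p = 0.0384).

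Shares within a protein family do not move with the scaling between libraries. Gfap forms filaments with vimentin and, in progenitors, nestin. Its share of the summed FPKM of Gfap, Vim and Nes was 45.6%, 45.1% and 43.9% in Control and 4.93%, 20.7% and 5.58% in PTN 1, PTN 2 and PTN 3 (exact two-sided permutation test, p = 0.1, the smallest p this design allows). The mean share was lower by 34.5 percentage points in PTN, and the groups did not overlap. Vim rose 1.5-fold (edgeR adjusted p = 0.0482), with means of 3448 ± 73.6 and 5165 ± 243 CPM (SD, n = 3 each) in Control and PTN. Leaving out PTN 1 or any Control library ended that call, with edgeR adjusted p between 0.0818 and 0.209. Upper-quartile scaling gave 0.0644 and limma on log2 FPKM 0.0827.

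Gjb6 made up 1.75%, 1.17% and 1.14% of the summed FPKM of the astrocyte connexin genes Gja1, Gjb2 and Gjb6 in Control. In PTN 1, PTN 2 and PTN 3 it made up 0.0616%, 0.171% and 0.0731% (exact two-sided permutation test, p = 0.1, the smallest possible). These PTN shares rest on 3, 18 and 1 Gjb6 counts, so the order of PTN 1 and PTN 3 carries no weight. PTN 2 was well below every Control library in this share, and its Gjb6 level was 28.9% of the Control mean in CPM. Gja1, which enters the sum, stood at 227% of its Control mean in PTN 2. Gjb2, which encodes connexin 26, had 9 counts or fewer in every library and was not tested.

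**Figure D4:**
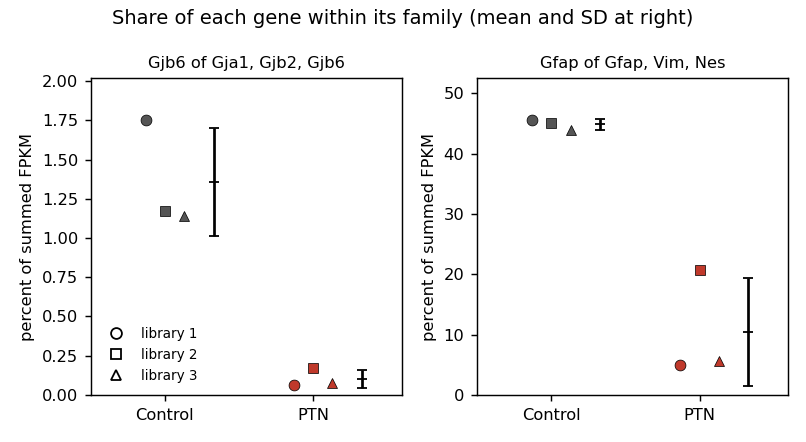
Share of Gjb6 among 3 connexin genes and of Gfap among 3 filament genes, in percent of their summed FPKM, with 1 point per library and the group mean and SD beside the points. In each panel all PTN libraries lie below all Control libraries, and PTN 2 is the highest of them.

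Other relatives moved in both directions. Of 31 tested relatives 4 fell and 2 rose, beside 3.06% and 4.93% of all genes tested, with a median log2 fold change of 0.25. Gja5, which encodes connexin 40 of vessels and heart, fell 3.04-fold (edgeR adjusted p = 0.0367), with group means of 7.86 ± 1.62 and 2.61 ± 1.49 CPM (SD, n = 3 each). The retinaldehyde dehydrogenase gene Aldh1a1 fell 3.23-fold (edgeR adjusted p = 0.0064), with group means of 60.2 ± 8.48 and 18.7 ± 6.40 CPM (SD, n = 3 each). Among S100 genes, which encode small calcium-binding proteins, S100a6 fell 2.5-fold (edgeR adjusted p = 0.00922) and S100a4 1.95-fold (edgeR adjusted p = 0.0462), while S100a10 rose 1.62-fold (edgeR adjusted p = 0.0342). The call of S100a4 was lost without any 1 of the libraries but PTN 3 and with the length trend removed (log2 fold change -0.63, edgeR adjusted p = 0.194). That of Gja5 was lost without any 1 library but PTN 3 (edgeR adjusted p between 0.0527 and 0.12), and that of S100a10 without PTN 1 or any Control library (0.0693 to 0.171). S100a6 read 0.0509 without Control 3. The relatives of highest level that were not called were Gjc1, Aqp11, S100a16, Aldh2, Acsl3 and Clu, with log2 fold changes of -0.27, -0.84, -0.45, -0.56, 0.06 and 0.23. Aqp11 was called lower by DESeq2 and by limma on log2 FPKM (adjusted p = 0.0368 and 0.0445), and without PTN 2 (edgeR adjusted p = 0.0265). S100a16 was called lower by DESeq2 (adjusted p = 0.0363). Without PTN 3, S100a16 and Aldh2 were called lower (edgeR adjusted p = 0.0479 and 0.0384).

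Among 111 other tested astrocyte genes, 12 fell and 9 rose by edgeR, and their median log2 fold change was 0.0051. Without PTN 2, 22 fell and 9 rose, where 3.35% of all genes fell and 5.01% rose. Without PTN 3, 16 fell and 15 rose, but calls over all genes went up too, to 6.79% lower and 9.56% higher. The counts of each list are read beside the shares over all genes, which were 3.06% lower and 4.93% higher by edgeR, 12.2% and 14.7% at an unadjusted p under 0.05, 5.88% and 8.62% by DESeq2, and 3.34% and 4.63% by limma-voom. With Control 1, Control 2, Control 3 or PTN 1 left out, 5 to 8 fell and 3 to 6 rose.

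Of 17 tested membrane, channel and endfoot genes, 2 fell and 0 rose (unadjusted p under 0.05 in 7 and 1; DESeq2 4 and 0, limma-voom 2 and 0). Kcnj10, the Kir4.1 potassium channel that clears potassium from around neurons, fell 2.21-fold (edgeR adjusted p = 0.00412), with group means of 2804 ± 115 and 1268 ± 42.0 CPM (SD, n = 3 each). Its PTN libraries lay close together, at 1220.05, 1291 and 1295 CPM, without the split seen in Gfap. The call held without any 1 library.

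Of 14 tested genes of glutamate and amino acid handling, 5 fell and 0 rose (unadjusted p under 0.05 in 8 and 1; DESeq2 7 and 0, limma-voom 6 and 0), with a median log2 fold change of -0.79. Slc38a3, a glutamine transporter, fell 3.03-fold (edgeR adjusted p = 0.0064), with group means of 231 ± 33.7 and 76.1 ± 21.6 CPM (SD, n = 3 each). The GABA transporter gene Slc6a11 fell 2.57-fold (edgeR adjusted p = 0.0104), with group means of 482 ± 58.0 and 187 ± 55.1 CPM (SD, n = 3 each). Prodh, the first enzyme of proline breakdown, fell 2.83-fold (edgeR adjusted p = 0.0137), a call lost on leaving out Control 1, Control 2 or PTN 1 (edgeR adjusted p = 0.0652, 0.05 and 0.0504). Glul, the glutamine synthetase gene, fell 2.01-fold (edgeR adjusted p = 0.0229), and Etnppl, a phospholyase gene with 49 counts or fewer per library, was the last of the 5. Slc1a3, a glutamate transporter of radial glia and astrocytes, read 1666 ± 159 and 2149 ± 81.2 CPM (SD, n = 3 each) and was not called (edgeR adjusted p = 0.165).

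Of 17 tested genes of glycogen, fatty acid and redox metabolism, 1 fell and 0 rose (unadjusted p under 0.05 in 5 and 1; DESeq2 4 and 1, limma-voom 1 and 0). It was Ppp1r3c, which targets a phosphatase to glycogen, which was lower by 1.52-fold (edgeR adjusted p = 0.0393). Leaving out Control 1, Control 2, Control 3 or PTN 1 ended that call (0.1 to 0.135).

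Of 16 other tested genes of lipoprotein handling, the field of Apoe, 3 rose and 1 fell. The sterol exporter gene Abcg1 rose 4.04-fold (edgeR adjusted p = 0.00338), with group means of 1.67 ± 0.0256 and 6.77 ± 1.24 CPM (SD, n = 3 each). The lipoprotein receptor gene Vldlr rose 2.27-fold (edgeR adjusted p = 0.00992; 0.0506 once Control 3 was left out), as did the sterol exporter gene Abca1, by 2.26-fold (edgeR adjusted p = 0.0255). Lcat, which esterifies cholesterol on such particles, fell 1.92-fold (edgeR adjusted p = 0.0172), which no longer passed when Control 1 or PTN 1 was left out (0.0523 and 0.0648). For Abcg1, limma on log2 FPKM gave an adjusted p of 0.0653.

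Secreted and matrix genes gave 4 rises and 2 falls among 20 tested. Cst3, the protease inhibitor cystatin C, fell 3.25-fold (edgeR adjusted p = 0.00344), with group means of 917 ± 84.3 and 282 ± 65.9 CPM (SD, n = 3 each). The glypican gene Gpc5 rose 4.31-fold (edgeR adjusted p = 0.0085), from 51 to 77 counts in the Control libraries to 188 to 390 in the PTN libraries. The matrix protein gene Sparc rose 1.77-fold (edgeR adjusted p = 0.0103), though not with Control 2 or Control 3 left out (0.0795 and 0.0941). The other calls were Chrdl1 and Tnc, higher, and Htra1, lower.

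Of 27 tested regulators of astrocyte fate, 1 fell and 2 rose, which is near the shares over all genes of 3.06% and 4.93%. Hes5, a Notch target that keeps progenitors undifferentiated, fell 3.32-fold (edgeR adjusted p = 0.0151), a call that ended when Control 1, Control 3 or PTN 1 was left out (0.0539 to 0.064). Socs3, a feedback inhibitor of STAT3 signalling, rose 1.55-fold, and Id1, a target of BMP signalling, 1.56-fold (edgeR adjusted p = 0.0379 and 0.0388). Both were lost without any 1 of the Control libraries or PTN 1 (0.12 to 0.144 for Socs3 and 0.0852 to 0.172 for Id1), Socs3 also without PTN 2 (0.068), and Id1 under upper-quartile scaling (0.0507). Sox9, Nfia and Stat3, which promote astrocyte genes, were not called (log2 fold changes 0.01, 0.47 and 0.17, edgeR adjusted p = 0.975, 0.239 and 0.445).

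**Figure D5:**
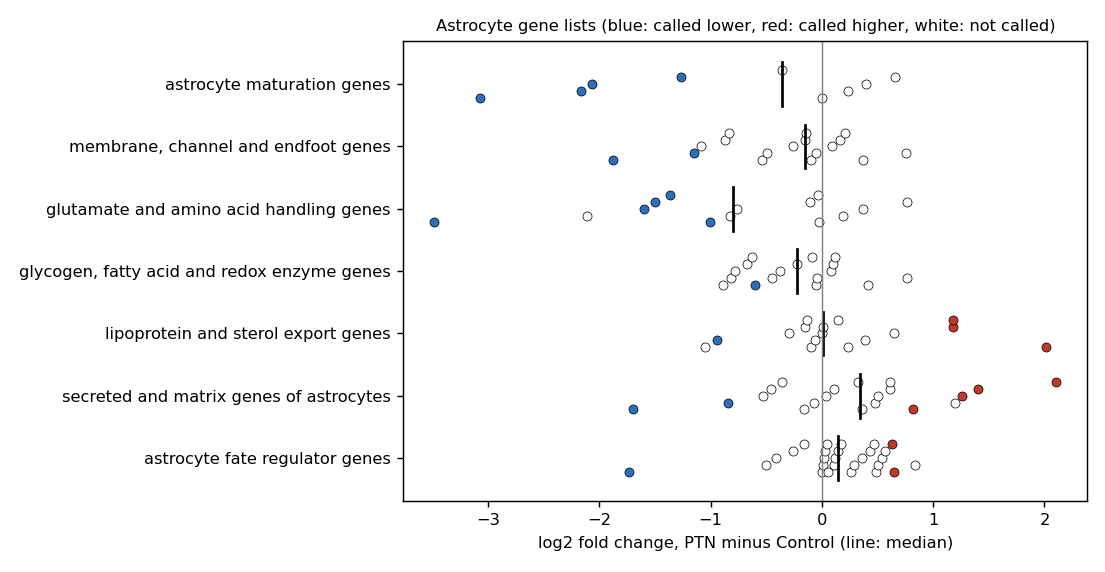
Log2 fold change, PTN minus Control, of each tested gene in the 9 maturation genes and in 6 lists of other astrocyte genes, with 1 point per gene and a line at the median. Blue marks genes called lower, red genes called higher and white genes not called; calls among glutamate and amino acid genes are all lower, while those among lipoprotein and secreted genes fall on both sides.

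Markers of other cell types moved beside these genes in part. Their counts are read beside the shares over all genes, 3.06% lower and 4.93% higher by edgeR. Those shares were 12.2% and 14.7% at an unadjusted p under 0.05, 5.88% and 8.62% by DESeq2, and 3.34% and 4.63% by limma-voom. Of 7 tested markers of the oligodendrocyte lineage 2 fell, Pdgfra and Cspg4 of its precursors, and 0 rose. At an unadjusted p under 0.05, 3 were lower and 1 was higher, and DESeq2 and limma-voom each called 3 lower. The list summed to 493 to 591 CPM in Control and 393 to 520 CPM in PTN, with none of its genes at 0 in either whole group. Of 10 stem and progenitor markers Egfr and Vim rose and 0 fell (unadjusted p under 0.05 in 1 lower; DESeq2 1, limma-voom 0), the list summing to 4994 to 5403 CPM in Control and 7246 to 7655 CPM in PTN. Vim made up most of that sum, and the other 9 summed to 1556 to 1876 CPM in Control and 1929.6 to 2677 CPM in PTN, with Msi1 and Pax6 at log2 fold changes of -0.57 and -0.09 (not called). Of 8 tested neuron markers 0 were called by edgeR (unadjusted p under 0.05 in 1 lower and 2 higher; DESeq2 0, limma-voom 0), with sums of 253 to 384 CPM in Control and 299 to 503 CPM in PTN. Of 5 tested fibroblast markers Pdgfrb and Col3a1 fell, the list summing to 12.3 to 17.5 CPM in Control and 4.01 to 7.49 CPM in PTN. Endothelial and mural markers, with 4 tested and Pdgfrb, shared with the fibroblast list, as their 1 call, summed to 11.2 to 14.0 CPM in Control and 8.58 to 11.9 CPM in PTN. Ependymal markers summed to 73.5 to 91.8 CPM in Control and 59.8 to 110.1 CPM in PTN, with Tmem212 at 0 throughout. Their part in the falls of Gfap, Aldoc, Gjb6 and Acsl6 was not tested.

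The genes whose profile over the 6 libraries was most like that of Gfap, by Euclidean distance of centred log2 CPM among 12451 genes, were Tmem132b, Gabbr2, Bmf, Trim67 and Als2cl, at distances of 0.747 to 0.985. Tmem132b, a membrane protein gene, read 125 ± 19.3 CPM in Control and 28.5 ± 18.6 CPM in PTN (SD, n = 3 each). Genes most like Aldoc included Gpr37l1, Camk2a, Als2cl and Tmem132b, at distances of 0.283 to 0.585. Gpr37l1, an orphan receptor gene of astrocytes, was nearest, at 77.5 ± 10.9 and 15.7 ± 7.20 CPM (SD, n = 3 each). Als2cl and Tmem132b stood in both sets.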

How the data were processed

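Per the labels' protocols, column-purified RNA went into a SMARTER mRNA library kit. The authors deposited 1 table with expected counts (estimated reads or fragments per gene, unscaled) and FPKM per library. The aligner, the counter and the genome they used were not given in the sources used here. Columns were matched to samples by group initial and replicate number, and all were matched. The 9 genes had whole expected counts throughout. Genes, lists and alternatives were chosen with earlier results of these data known.

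Expected counts were rounded, filtered with filterByExpr (59.0% of genes kept), scaled by TMM, and compared by edgeR's quasi-likelihood test (edgeR 4.0.16, R 4.3.3), PTN minus Control, without covariates. The p-values were adjusted by Benjamini-Hochberg over all genes tested and called under 0.05. The SE is the log2 fold change over the root of F. SDs on the log2 scale and distances used a pseudocount of 0.5 CPM, and percents of the Control mean used none. Shares used deposited FPKM, with exact permutation tests (scipy 1.17.1). Totals per library limit precision: genes under 1 CPM rest on under 27 counts. No pair within a group differed as little as sampling noise allows (smallest chi-square per degree of freedom 12.4). Tested on simulated data for this comparison (13085 genes), the procedure recovered 64% of 2-fold and 100% of 4-fold changes. Every simulated gene had the same dispersion (spread beyond counting noise). Recovery was therefore not measured for genes as uneven between libraries as Gfap in PTN.

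Named genes were the 9, up to 3 called genes per list by smallest p (or the smallest p), the highest and any called relatives, and the 5 nearest to Gfap and to Aldoc. Some genes that this rule names are not reported here. Genes named beyond these were chosen after their values were seen. Alternatives were scaling by upper quartiles, by DESeq2 size factors or by library totals, no filter, 1 CPM in 3 libraries, DESeq2 (1.42.0), limma-voom and limma on log2(FPKM + 0.1) (limma 3.58.1), the replicate number as a block, a length trend removed, other thresholds, and leaving out each library.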

Additional observations from a re-analysis of the deposited data

How the results depend on the processing

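Genes called over the whole table numbered 1052, against 1908 by DESeq2, 636 with a log2 fold change of at least 1, and 331 to 2177 when 1 library was left out. Called maturation genes numbered 4 lower under every scaling, filter and test tried, 3 with the length trend removed, and 1 to 4 when 1 library was left out. Those called higher stayed at 0 when 1 library was left out. Other astrocyte genes called lower numbered 12, against 19 by DESeq2 and 5 to 22 with 1 library left out, and those called higher numbered 9 and 3 to 15. Leaving out a library also leaves fewer samples. The share differences kept their sign, at -1.36 to -1.05 (Gjb6) and -39.6 to -31.7 (Gfap) percentage points.

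Among the named genes, directions turned for 5, none of them called. For Aqp4 the log2 fold change was -0.079 by limma-voom, -0.090 on log2 FPKM, -0.072 with the replicate block, and -0.82 (without PTN 2) to 0.62 when 1 library was left out, including -0.012 without Control 1. For Apoe it was 0.0017 under the size factors and the test of DESeq2, 0.0028 when filtered at 1 CPM, 0.16 with the length trend removed, and -0.51 to 0.25 when 1 library was left out, being 0.077, 0.25 and 0.14 without Control 1, PTN 1 and PTN 3. For Gja1 it was -0.26 (without PTN 2) to 0.64, for Clu -0.0093 (without PTN 2) to 0.45, and for Acsl3 -0.08, -0.05 and -0.23 without Control 1, Control 3 and PTN 2. The cause was not tested. Replicate numbers pair no samples in the labels, and same-numbered libraries deviated with correlations of -0.56, 0.35 and -0.15. With the replicate block 726 genes were called in all and the same 4 maturation genes stayed called lower, while Vim, Socs3, Id1, Ppp1r3c, S100a4 and S100a10 no longer passed (edgeR adjusted p = 0.18, 0.12, 0.0969, 0.102, 0.068 and 0.071).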

Other observations

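Among the relatives of the maturation genes, 2 genes typical of liver were present in some libraries and absent in others, which was noticed after the values were seen. For Apoa1 the counts were 0, 0 and 78 over the Control libraries, in the order 1 to 3, and 53, 0 and 56 over the PTN libraries. Apob had 0, 0 and 12 counts in Control and 18, 0 and 39 in PTN. Alb, the gene of serum albumin, followed the same libraries, with 0, 0 and 603 counts in Control and 750, 5 and 505 in PTN. Control 3, PTN 1 and PTN 3 held the transcripts of Apoa1, Apob and Alb, and PTN 2, the library with the highest Apoe, nearly lacked them. Apoa2, another apolipoprotein gene of liver, was present in all 6 libraries, at 12, 6 and 30 counts in Control and 25, 5 and 21 in PTN. Gfap and Aldoc in Control 3, at 3601 and 1204 CPM, lay beside the Control libraries without Alb. That is 1 library, and a link between these transcripts and the levels of Gfap and Aldoc was not tested.

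The metallothionein gene Mt1, whose product binds zinc and copper, followed the split of Gja1 and Apoe within the PTN group. Mt1 stood at 493, 416 and 353 CPM in Control and at 297, 785 and 269 CPM in PTN 1, PTN 2 and PTN 3. Its neighbour in function Mt2 stood at 279, 268 and 232 CPM in Control and at 244, 624 and 171 CPM in PTN, so that PTN 1 lay within the Control range there. Agt, the angiotensinogen gene of astrocytes, had the same split as Mt1, at 36.4, 26.6 and 25.8 CPM in Control and 12.8, 67.3 and 15.9 CPM in PTN. None of the 3 was called by edgeR (adjusted p = 0.877, 0.514 and 0.905).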
